A study of Mus musculus with 2 samples.

Results

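Arginine is the substrate shared by the arginases and the nitric oxide synthases, and the 7 genes described here cover its main uses in tumour macrophages. They are Arg1 and Arg2 (the cytosolic and the mitochondrial arginase), Nos2 (inducible nitric oxide synthase), Slc7a2 (a cationic amino acid transporter), Ass1 and Asl (the enzymes that remake arginine from citrulline) and Odc1 (ornithine decarboxylase). They were chosen by symbol, and all 7 were found among the 32285 features of the count tables. On GRCm38 (GENCODE vM21) Arg1 lies on the minus strand at chr10:24915221-24927484 and Nos2 on the plus strand at chr11:78920787-78960254. The samples were MC38 tumours, grown from a mouse colon adenocarcinoma line, with 1 droplet library labelled Mbtps1 WT (control) and 1 labelled Mbtps1 KD (knockdown). The series text speaks of a knockout for the second group. The labels and series text do not say which cells carried the change or how it was made, nor the animals' strain, sex and age or the number of tumours per library. With 1 library per group no difference has a replicate check, no test was made, and every 95% interval covers counting error only.

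Arginases split arginine into ornithine and urea, and ornithine feeds polyamine and proline synthesis. Nitric oxide synthases turn the same arginine into citrulline and nitric oxide. In mouse macrophages, Arg1 is induced by type 2 cytokines, lactate and hypoxia, while Nos2 is induced by interferon gamma together with microbial or inflammatory signals, and both have been described in tumour macrophages.

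The control library held 11161 kept cells with a median of 8082 UMIs (molecular barcodes that count captured RNA molecules), and the knockdown library held 16887 with a median of 4430. Cell classes were rebuilt from marker genes: 4714 control and 4968 knockdown cells were macrophage/monocyte-like, with median depths of 6158 and 3787 UMIs. A further 4323 and 6616 cells lay in clusters with little Xist RNA and are called Xist-low, since several of these clusters carried too few of the listed tumour markers for a tumour name. Mbtps1, the targeted gene, was at 29.0 CPM (UMIs of the gene per 1e6 UMIs of the class) in control and 12.3 CPM in knockdown Xist-low cells, a ratio of 0.423, and it was lower in 8 of 8 Xist-low clusters. In macrophage/monocyte-like cells it was at 19.2 and 18.9 CPM.

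Arg1 RNA lay almost wholly in macrophage/monocyte-like cells in both libraries, and its level there was lower in the knockdown library. Macrophage/monocyte-like cells held 97.4% of the Arg1 UMIs of all kept control cells and 95.2% of those of knockdown cells. Their Arg1 level was 1158 CPM in control and 903 CPM in knockdown, a ratio of 0.780 (95% Poisson interval 0.766 to 0.793). At least 1 Arg1 UMI was seen in 66.3% of control and 54.1% of knockdown cells of the class, without matching of depth. Every other named class lay far lower, as in T-like cells with 25.2 and 20.6 CPM. These low levels stood below the 283 and 156 CPM of Arg1 in the empty droplets, so free RNA cannot be told apart from expression there. Over all kept cells Arg1 was at 256 and 151 CPM, a ratio of 0.592, while macrophage/monocyte-like cells made up 42.2% of kept control and 29.4% of kept knockdown cells.

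**Figure D1:**
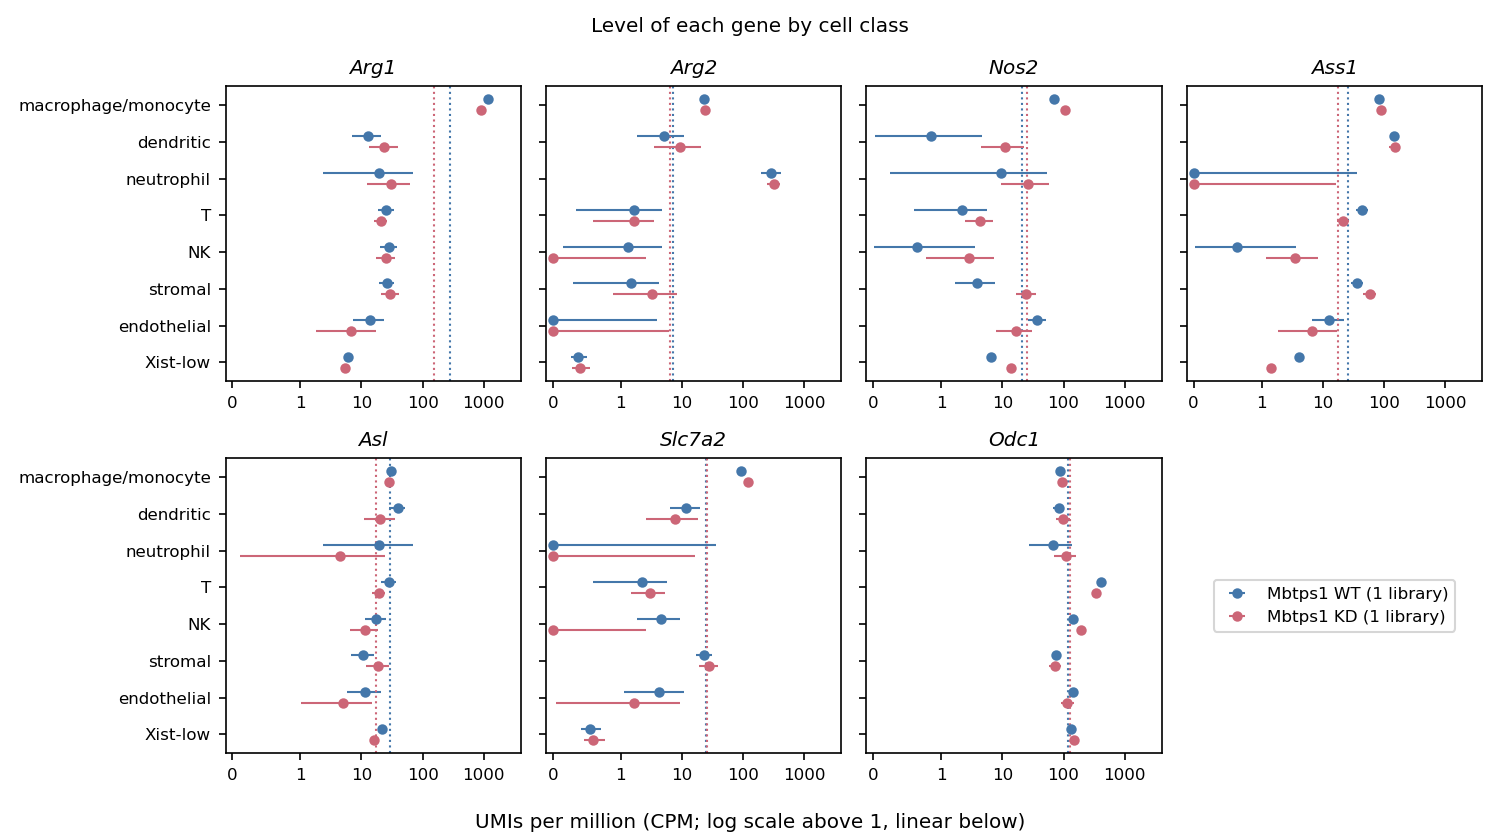
Level of each of the 7 genes (CPM of the class sum; log scale above 1 and linear below) in 8 cell classes, with 1 point per library and 95% Poisson intervals. Dotted lines mark the level in each library's empty droplets. Arg1 stands at 1158 and 903 CPM in macrophage/monocyte-like cells and below its empty-droplet level in the other classes shown, while Arg2 is highest in neutrophil-like cells and Odc1 in T-like cells.

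Nos2 moved the other way in the same cells. Its level in macrophage/monocyte-like cells was 70.0 CPM in control and 104 CPM in knockdown, a ratio of 1.49 (1.40 to 1.58). Slc7a2, which brings cationic amino acids into the cell, went from 94.1 to 121 CPM, a ratio of 1.28 (1.21 to 1.35). Both genes were thus higher in the library in which Arg1 was lower.

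The remaining members differed little in macrophage/monocyte-like cells. Odc1, which makes putrescine from ornithine, was at 86.7 and 94.9 CPM (ratio 1.09, 1.03 to 1.16). Ass1 was at 83.9 and 90.0 CPM (ratio 1.07, 1.01 to 1.14). For Asl and Arg2 the intervals included 1, with ratios of 0.927 (0.836 to 1.03) and 1.04 (0.929 to 1.17). A gene was called higher or lower when it differed by at least 1.5-fold with an interval that left out 1. By that rule 0 of the 7 members were called in either direction, against 6.03% of the 12553 genes with at least 50 UMIs called higher and 1.43% called lower. Nos2 lay just under the fold. In the macrophage subclusters alone, without monocytes, its 72.3 and 109 CPM gave a ratio of 1.51 (1.42 to 1.61). Arg1 had a ratio of 0.793 (0.779 to 0.807) in those subclusters. The share of all genes called was not counted there.

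**Figure D2:**
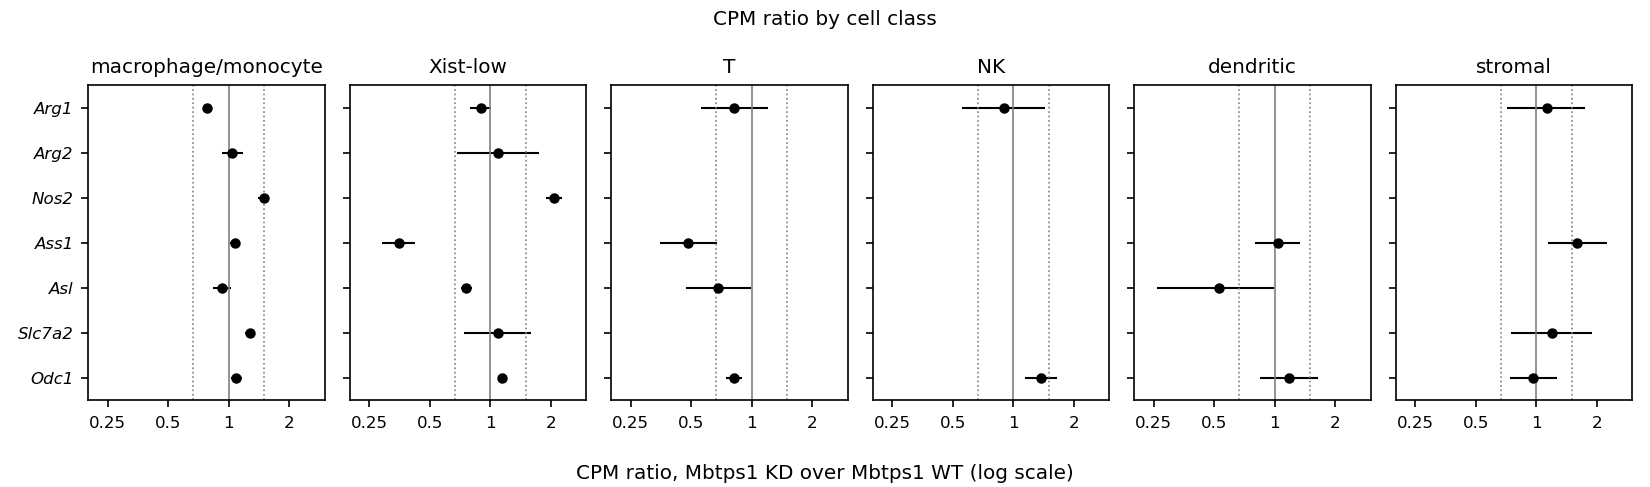
Ratio of CPM in the knockdown over the control library (log scale) for members with at least 50 UMIs over both libraries, in the 6 classes with at least 200 cells in each. Points are ratios, lines are 95% Poisson intervals, and dotted lines mark 1.5-fold either way. In macrophage/monocyte-like cells Arg1 lies at 0.780 and Nos2 at 1.49, and Ass1 lies at 0.350 in Xist-low and at 1.60 in stromal-like cells.

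The macrophage/monocyte-like cells were split into 16 subclusters, with the 7 genes left out of the genes used for that split but not of those used to define the class. Arg1 was lower in knockdown in 14 of the 16, with an interval below 1 in 12. Its highest level was in a subcluster led by Mmp12 and holding Adm and Hilpda, genes known to rise with hypoxia, at 2964 and 2736 CPM (ratio 0.923, 0.881 to 0.967). The next was a Pf4- and Spp1-led subcluster at 2300 and 2053 CPM. Among subclusters with at least 50 Arg1 UMIs and an interval below 1, the lowest ratios were in a cycling subcluster led by histone genes and Top2a, at 609 and 393 CPM (0.645, 0.602 to 0.690), and in one led by the interferon-induced genes Cmpk2 and Ifit3, at 765 and 483 CPM (0.632, 0.549 to 0.725). One subcluster ran the other way: cells with Retnla, Cd209f and Lyve1, known from tissue-resident macrophages, held 191 CPM in control and 473 CPM in knockdown (2.48, 1.93 to 3.20), from 91 and 213 UMIs. The 191 CPM stood below the 283 CPM of Arg1 in the empty droplets of the control library. The 473 CPM stood above the 156 CPM in those of the knockdown library. The part of free RNA in this difference was not tested. In the monocyte subclusters together Arg1 was at 228 CPM in control, also below the empty-droplet level, and at 295 CPM in knockdown (1.30, 1.13 to 1.49). None of the 3 monocyte subclusters alone had an interval that left out 1. The Ly6c2-led one was at 621 and 692 CPM (1.11, 0.964 to 1.29) and made up 137 of 428 control and 325 of 804 knockdown monocytes. The others held 35 and 15 UMIs (ratio 0.601, 0.305 to 1.13) and 21 and 17 UMIs (0.553, 0.274 to 1.10).

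Nos2 was higher in knockdown in most of the 16 subclusters. Its interval lay above 1 in 11 of the 16 subclusters and below 1 in 0. The highest control level was 247 CPM, in a subcluster led by Ccl5 that has Nos2 itself, Saa3, S100a8 and S100a9 among its 10 leading genes, which reached 341 CPM in knockdown (1.38, 1.20 to 1.59). In the Mmp12-led subcluster Nos2 went from 193 to 373 CPM (1.93, 1.67 to 2.25). A subcluster led by the neutrophil chemokine genes Cxcl2 and Cxcl1 went from 84.7 to 226 CPM (2.67, 2.21 to 3.22), and the Ifit3-containing subcluster from 49.7 to 148 CPM (2.98, 2.11 to 4.24). The subcluster led by Dcstamp and Il1r2, with 168 and 177 CPM (1.06, 0.916 to 1.22), showed no difference beyond counting error.

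**Figure D3:**
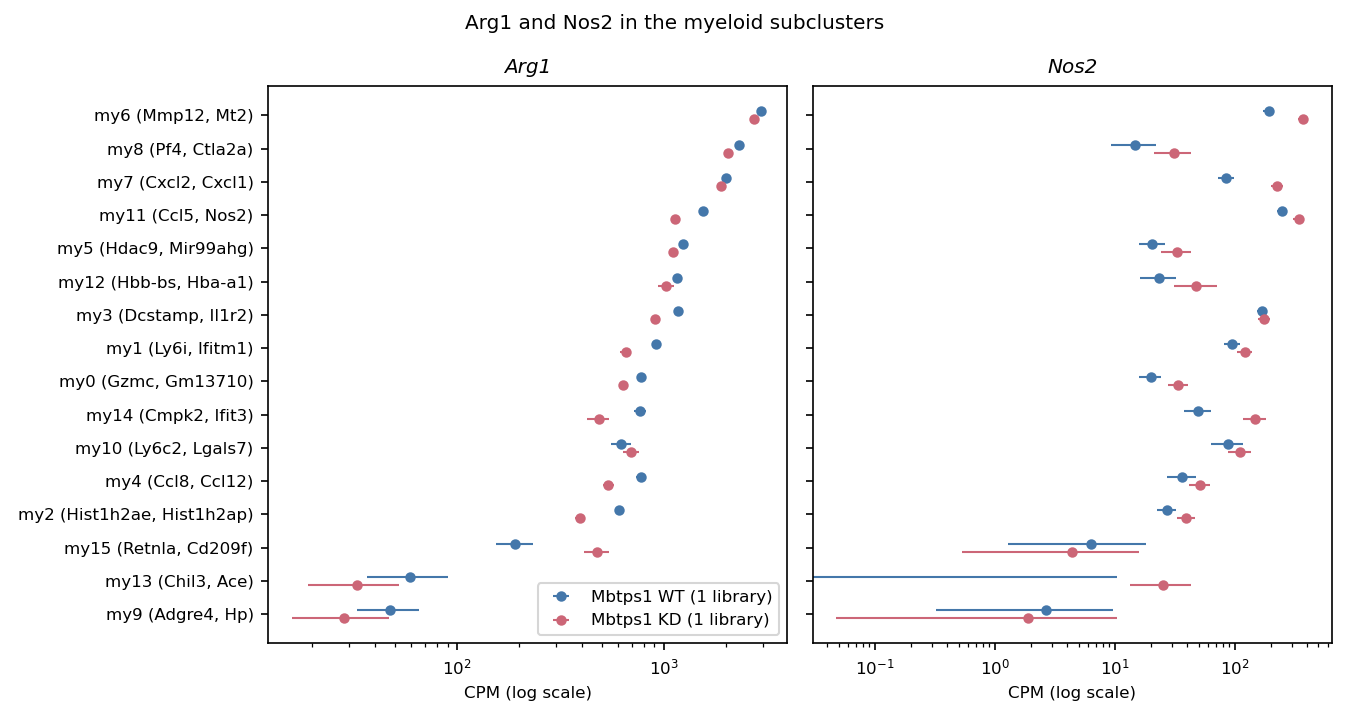
Arg1 and Nos2 CPM (log scale) in the 16 myeloid subclusters, each named by its first 2 leading genes and ordered by Arg1, with 1 point per library and 95% Poisson intervals. A level of 0 UMIs, for Nos2 in the control cells of the Chil3- and Ace-led subcluster, has no point. Arg1 points of the knockdown library lie left of control in 14 subclusters, and the Retnla-led one lies at 191 and 473 CPM.

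Slc7a2 had an interval above 1 in 8 of the 16 subclusters. In the Mmp12-led subcluster it went from 209 to 413 CPM (1.97, 1.71 to 2.28), and in one led by Hdac9 and holding Stab1 from 32.0 to 125 CPM (3.90, 3.05 to 5.00). In the Ccl5-led subcluster it was at 254 and 258 CPM. Across the 32 subcluster sums (16 subclusters in each library), Slc7a2 was also the gene whose level followed Nos2 most closely among 5061 candidates, with a Pearson r of 0.90, followed by A930007I19Rik and Glrx at 0.82 and Creb5 and Carmil1 at 0.81. The genes closest to Arg1 were Pgam1 at 0.94, Gsn, Aldoa and Tpi1 at 0.92 and Gapdh at 0.91, of which all but Gsn encode glycolytic enzymes. Arg1 itself had an r of 0.83 with Slc7a2 and 0.69 with Nos2. These correlations are descriptions over sums that share their library, depth and cell source. Some of the sums hold few UMIs, such as 3 and 2 of Nos2 and 11 and 8 of Slc7a2 in the Retnla-led subcluster.

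Arg2 and the recycling enzymes had their own places. Arg2 was highest in neutrophil-like cells, at 289 CPM in control and 316 CPM in knockdown, from 30 and 72 UMIs in 68 and 200 cells. Arg1 gave only 2 and 7 UMIs in those neutrophil-like cells. Among the myeloid subclusters Arg2 was highest in the Chil3- and Ace-led monocytes, at 133 and 128 CPM. Ass1 was highest in the Ly6c2-led monocytes, whose leading genes also held the keratin gene Krt14, at 352 and 264 CPM (0.750, 0.606 to 0.928). Odc1 was highest in the Cxcl2-led macrophages, at 234 and 280 CPM (1.20, 1.04 to 1.37). Cells of the dendritic-like class held Ass1 at 145 and 151 CPM (1.04, 0.799 to 1.34). That class was mixed: its subcluster with the highest Ass1, at 251 and 280 CPM, was led by Hdc and Mcpt8, counted 10 macrophage and 3 dendritic markers, and made up 38 of 252 control and 69 of 223 knockdown cells. Another, of 27 cells, was led by immunoglobulin genes and counted 0 dendritic markers. Asl, which completes the return from citrulline to arginine, was at 38.8 and 20.4 CPM there (0.525, 0.260 to 0.989), from 46 and 13 UMIs. It was the 1 of 3 tested members called lower in that class, where 4.47% of 4814 genes were called lower and 3.84% higher, and 0 members were called higher. With every cell thinned to 500 UMIs the Asl ratio was 1.70, in the other direction.

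Joint detection asked whether Arg1 and Nos2 RNA occurred in the same C1q-positive macrophages. A cell counted as C1q-positive with at least 3 UMIs of C1qa, C1qb and C1qc that made at least 0.1% of its UMIs, in a macrophage subcluster. Each cell was thinned to 2000 UMIs, which left out 79 of 3959 control and 246 of 3610 knockdown cells. Both genes were detected in 245 of 3880 control cells (6.31%, 95% Clopper-Pearson interval 5.57 to 7.13) and in 246 of 3364 knockdown cells (7.31%, 6.46 to 8.25). The intervals overlap, and the difference in the joint share was not tested. At 4000 UMIs per cell, 3426 control and 2200 knockdown cells were deep enough, which left out 533 and 1410. Their shares were 9.75% (8.78 to 10.8) and 13.3% (11.9 to 14.8), and the intervals did not overlap. The 2 depths thus cover different sets of cells.

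The single-gene shares differed more. Arg1 was detected in 57.7% of control and 50.2% of knockdown cells, and Nos2 in 7.89% and 10.4%. Within each library Nos2 was seen more often in cells with Arg1 than without, in 10.9% against 3.72% of control cells and in 14.6% against 6.15% of knockdown cells. Of the cells with Nos2, 80.1% in control and 70.5% in knockdown also held Arg1. The 2 RNAs were therefore found together more often than apart among Nos2-positive cells of both libraries.

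T-like cells, which should lack both genes, gave a background. At the same depth 3.90% of control and 3.35% of knockdown T-like cells held an Arg1 UMI, 0.260% and 1.34% held a Nos2 UMI, and 0 of 385 and 0 of 746 held both. Monocyte subclusters held both in 2.05% and 2.06% of cells. Cells of the macrophage subclusters below the C1q threshold held both in 16.2% of 291 control (12.1 to 20.9) and 18.1% of 359 knockdown cells (14.3 to 22.5), above the shares of C1q-positive cells. The joint share was highest in the Mmp12-led subcluster, at 21.1% and 31.2%, and in the Ccl5-led subcluster, of which Nos2 is a leading gene, at 24.3% and 23.6%.

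**Figure D4:**
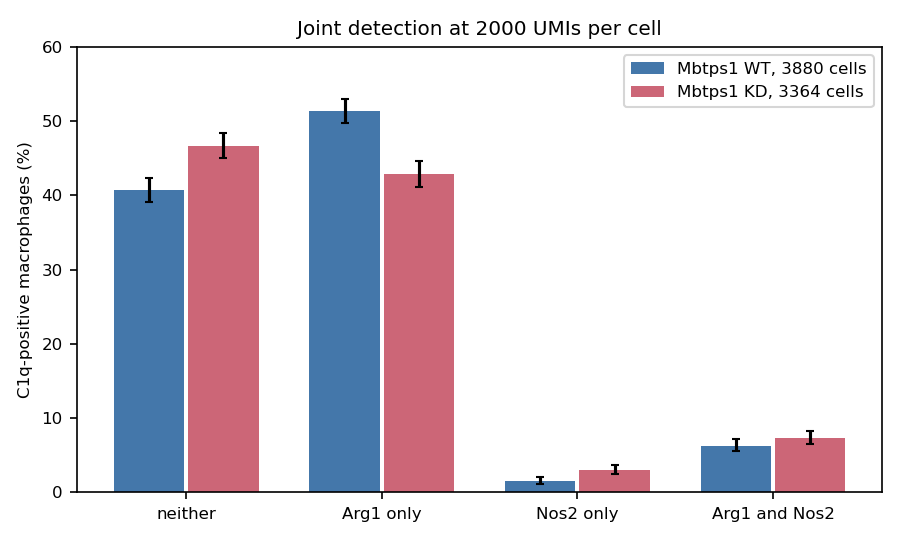
Share of C1q-positive macrophages (%) with at least 1 UMI of neither gene, Arg1 only, Nos2 only or both, after thinning to 2000 UMIs, with 95% Clopper-Pearson intervals as error bars. Both genes were detected in 6.31% of control and 7.31% of knockdown cells, and the Arg1-only share is lower in knockdown.

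Among the other members, Slc7a2 stood highest in cells with both RNAs. It was detected in 39.2% of control cells with both genes, against 13.0% with Arg1 only, 11.5% with Nos2 only and 4.24% with neither. In knockdown the same shares were 31.7%, 21.5%, 13.6% and 7.32%. Ass1 went with Nos2 rather than with Arg1: it was detected in 26.5% of control cells with both and 24.6% with Nos2 only, but in 12.2% with Arg1 only and 12.4% with neither. Odc1 was detected in 14.3% of control cells with both, 14.1% with Arg1 only, 8.20% with Nos2 only and 13.9% with neither. For Asl these shares were 4.90%, 5.76%, 8.20% and 5.26%, so Odc1 and Asl did not stand apart in control cells with both. In knockdown the Odc1 shares were 17.5%, 15.6%, 12.6% and 12.8%, and the Asl shares 3.66%, 5.27%, 2.91% and 7.32%. The Odc1 level in knockdown was 128 CPM (98.4 to 164) with both and 74.7 CPM (65.5 to 84.9) with neither. The summed hypoxia and glycolysis list was at 9416 CPM in control cells with both genes and 3845 CPM in those with neither, and at 9396 and 4071 CPM in knockdown. Cells with 1 of the genes lay between: 6496 CPM with Arg1 only and 6180 CPM with Nos2 only in control, and 6565 and 5549 CPM in knockdown. The summed interferon gamma list was highest in cells with Nos2 only, at 26467 and 26699 CPM, from 61 and 103 cells. It was at 20937 and 20778 CPM with both, 20667 and 21976 CPM with neither and 14958 and 15946 CPM with Arg1 only. The most abundant genes of that list were Cd74 and H2-Ab1, at 8170 and 3745 CPM in control macrophage/monocyte-like cells, so they weigh heavily in the sum.

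Outside the macrophages, Nos2 was higher and Ass1 lower in Xist-low cells of the knockdown library. Nos2 was at 6.58 and 13.6 CPM (2.07, 1.89 to 2.27), with ratios of 1.58 to 3.83 over the 8 clusters and an interval above 1 in 7. Ass1 was at 4.15 and 1.45 CPM (0.350, 0.288 to 0.424) and was lower in 7 of 8 clusters, with an interval below 1 in 4. Thus 1 of 7 members was called higher and 1 lower, against 10.4% and 4.09% of 15305 genes. The 14 macrophage markers summed to 272 CPM in the Xist-low cells of both libraries, and Nos2 stood below its level in the empty droplets of each library. If all Arg1 UMIs of the Xist-low cells came from free RNA, the Nos2 from that source would be 0.448 and 0.862 CPM. With 10% of the UMIs taken as free RNA and subtracted, the Nos2 ratio was 2.48. The part of free RNA in the Nos2 difference was not tested beyond these values. Asl was at 21.3 and 16.1 CPM (0.760, 0.712 to 0.811) and lower in 8 of 8 clusters, with an interval below 1 in 2. Odc1 was at 133 and 151 CPM (1.14, 1.11 to 1.16). Without the clusters that had the fibroblast genes Dcn or Dpt among their leading genes, which held more control than knockdown cells, the Ass1 ratio was 0.482 and the Odc1 ratio 1.01.

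Odc1 had its highest level in T-like cells, above all in the Foxp3-positive subcluster. Over all T-like cells Odc1 was at 414 CPM in control and 339 CPM in knockdown (0.820, 0.748 to 0.898). In the Foxp3-positive subcluster, which bears the marker of regulatory T cells, it was at 1248 and 1252 CPM, with an interval of the ratio from 0.880 to 1.14. That was 6.73-fold (5.78 to 7.84) and 5.17-fold (4.59 to 5.81) the level of all other T-like cells. In the subclusters with neither Foxp3 nor Trdc it was higher in knockdown, at 172 and 231 CPM (1.35, 1.16 to 1.57).

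The lower class total therefore sat beside a change in mix: the Foxp3-positive subcluster made up 27.6% (23.9 to 31.6) of control and 13.4% (11.8 to 15.1) of knockdown T-like cells. With the same Foxp3-positive share in both libraries the Odc1 ratio was 1.13, on the other side of 1. Ass1 in T-like cells was at 44.4 and 21.5 CPM (0.484, 0.350 to 0.668), so that 1 of 4 tested members was called lower and 0 higher, against 2.76% of 8482 genes called lower and 5.18% called higher. With equal Foxp3-positive shares its ratio was 0.713, which no longer reaches 1.5-fold. In NK-like cells Odc1 was at 141 and 195 CPM (1.38, 1.15 to 1.66), and 0 of 2 tested members were called, against 5.88% of 6393 genes higher and 3.28% lower. With every cell thinned to 500 UMIs the Odc1 ratio in NK-like cells was 0.853.

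**Figure D5:**
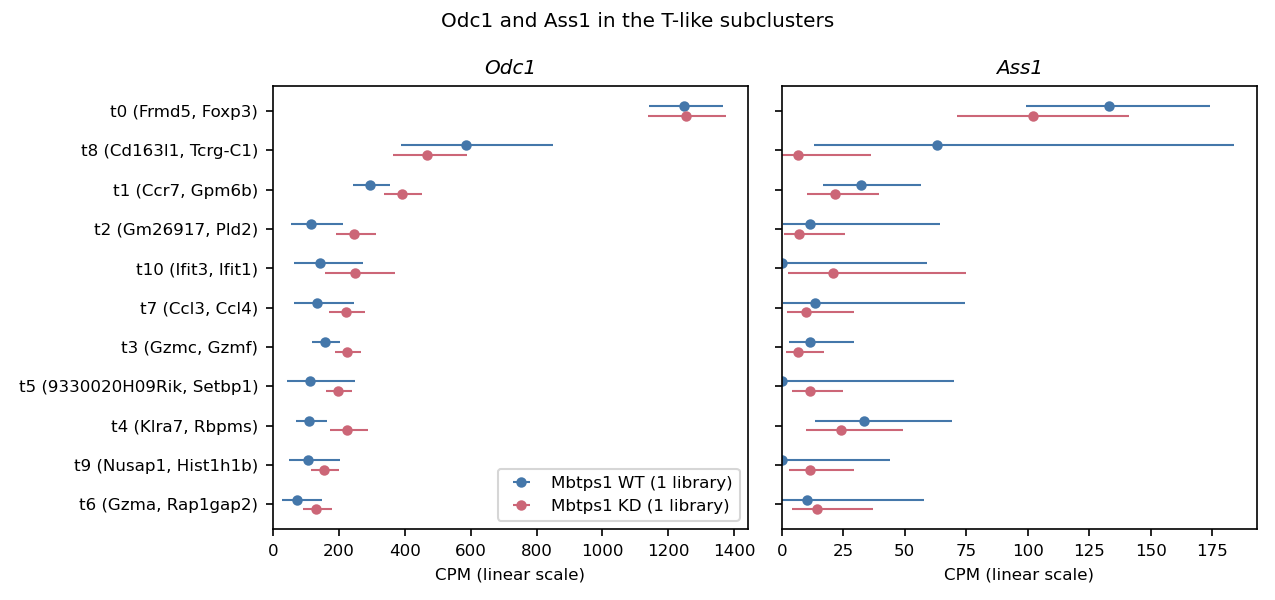
Odc1 and Ass1 CPM (linear scale) in the 11 T-like subclusters, each named by its first 2 leading genes and ordered by Odc1, with 1 point per library and 95% Poisson intervals. The subcluster with Foxp3 stands at 1248 and 1252 CPM of Odc1, above every other subcluster in both libraries.

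In stromal-like cells Ass1 was higher in knockdown, at 36.8 and 58.8 CPM (1.60, 1.14 to 2.24), from 76 and 72 UMIs, where 1 of 4 tested members was called higher and 0 lower, against 2.86% and 4.35% of 7832 genes. Nos2 gave 8 and 30 UMIs in stromal-like and 35 and 10 UMIs in endothelial-like cells, too few for a call.

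Few genes of the wider pathway could be called in macrophage/monocyte-like cells. The lists are short, and at the 6.03% called higher and 1.43% called lower over all 12553 genes a list of this size holds few calls or none. In the arginine supply and urea cycle list, 0 of 9 measured genes were called, with a median log2 ratio of -0.02 against 0.04 over all genes tested. Its most abundant member, Gatm, which starts creatine synthesis from arginine, was at 537 and 559 CPM. In the polyamine list 0 of 17 were called (median -0.03), with the spermidine synthase gene Srm at 18.7 and 26.3 CPM (1.41, 1.25 to 1.58). In the proline and glutamate list 0 of 8 were called (median -0.00), and in the list of nitric oxide synthases, cofactor and inhibitor genes 0 of 9 (median 0.11). Among the latter, Ddah1, which breaks down inhibitors of nitric oxide synthase, was at 15.2 and 22.1 CPM (1.46, 1.28 to 1.66).

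The listed genes known to induce the 2 enzymes were also all within 1.5-fold. In the Nos2 inducer list 0 of 16 were called (median 0.21), with Tnf at 71.5 and 99.1 CPM, Il1b at 394 and 519 CPM and the receptor gene Ifngr1 at 105 and 82.3 CPM. In the Arg1 inducer list 0 of 16 were called (median 0.04), with Cebpb at 758 and 726 CPM. The hypoxia and glycolysis list had 0 of 18 called (median -0.04). In the acute inflammation list 5 of 16 were called higher and 1 lower (median 0.46), against 6.03% and 1.43% of all genes tested, among them Cxcl2 at 434 and 777 CPM and Saa3 at 29.5 and 78.8 CPM. The alternative macrophage list had 5 of 14 higher and 0 lower (median 0.26). Among the 5 were Ccl8 at 1052 and 1754 CPM and Chil3 at 48.6 and 113 CPM. Chil3 is also a listed monocyte marker, and monocyte subclusters held 428 of 4714 control and 804 of 4968 knockdown cells of the class. The part of that mix in the Chil3 difference was not tested. The lowest ratio of that list was in Trem2, at 593 and 439 CPM (0.740, 0.721 to 0.758), and Mrc1 was at 232 and 214 CPM (0.924, 0.890 to 0.960). The interferon gamma list had 1 of 18 higher, Cxcl9, at 1465 and 2461 CPM (median 0.17), and the lipid-associated macrophage list 1 of 12 higher, Lpl (median -0.02), both near the share over all genes.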

How the data were processed

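The authors deposited unfiltered UMI count matrices, made with Cell Ranger 4 per the file headers. No header or label used here names the genome build. About 6000 cells were added per channel and about 3000 expected, per the labels' protocols. The 11161 control and 16887 knockdown cells kept exceed both numbers, for a reason the labels do not give, so cell shares are shares of barcodes kept here. Cells had to reach 500 UMIs and 250 genes, with mitochondrial UMIs not above 20%, and to differ from empty droplets (barcodes up to 100 UMIs) at a false discovery rate of 0.01 by 1000 draws. Barcodes from 3000 UMIs up skipped that test. Of 177399315 control and 174190399 knockdown UMIs, 144089088 and 131296322 lay in kept cells. A Scrublet-type score removed 421 (3.63%) and 707 (4.02%) doublets. The libraries shared 48 cell barcodes.

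Cells were clustered with 2000 variable genes, 30 principal components, 15 neighbours and Leiden resolution 1 (leidenalg 0.10.2, Python 3.11.15, SciPy 1.17.1), without integration. Clusters took the class with the largest share of its listed markers, at least 3 markers at 20 CPM and 25% of the highest cluster. Clusters with Xist under 20 CPM formed the Xist-low class. In all, 378 control and 2194 knockdown cells were left unnamed, mostly a shallow cluster led by the muscle genes Acta1 and Ckm (201 and 1998 cells). Cell names are rebuilt here and the naming rules were set with the data in view.

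The listed monocyte marker Ly6a2 was not found by symbol and not used. UMIs were summed per class and library. Ratios carry 95% exact Poisson and shares 95% Clopper-Pearson intervals. UMIs of 1 cell are not independent of each other, so the intervals are too narrow as a measure of the spread between tumours. The ratio intervals were also run on simulated independent Poisson counts. That simulation held no cells, so it cannot show the effect of dependence within cells. The members and lists were chosen with earlier results of these data known. The genes named were the members, from each list the 2 most abundant and the ones with the highest and lowest ratio, of which a selection is printed, and the 5 genes most like Arg1 and Nos2.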

Additional observations from a re-analysis of the deposited data

Results flagged for a closer look

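Ass1 went opposite ways by at least 1.5-fold in different cell classes. Its ratio of knockdown over control was 0.350 in Xist-low and 0.484 in T-like cells, and 1.60 in stromal-like cells. With the same Foxp3-positive share in both libraries the T-like ratio was 0.713, which is within 1.5-fold. The difference between classes was not tested, and the stromal value rests on 76 and 72 UMIs.

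Arg1 went opposite ways in subclusters of the myeloid cells. Its ratio was 0.645 in the cycling subcluster and 0.632 in the subcluster led by Cmpk2 and Ifit3, but 2.48 in the Retnla- and Cd209f-led subcluster. The difference between subclusters was not tested, and the last value rests on 105 control and 139 knockdown cells. The control level behind that value, 191 CPM, stood below the 283 CPM of Arg1 in the control library's empty droplets.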

How the results depend on the processing

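The Arg1 ratio in macrophage/monocyte-like cells ranged from 0.770 to 0.843 over 9 alternatives, and the Nos2 ratio from 1.38 to 1.56, each on the same side of 1. Outside the main interval were Arg1 with the same subcluster weights in both libraries (0.843) and Nos2 with every cell thinned to 500 UMIs (1.38). The joint share of Arg1 and Nos2 depended on depth by construction: it was 3.42% in control and 3.80% in knockdown at 1000 UMIs, 9.75% and 13.3% at 4000 UMIs, 1.93% and 2.11% with at least 2 UMIs of each gene, and 13.6% and 13.5% without thinning.

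For the other members, with 2 alternatives added after seeing the data, 179 of 203 alternative values over 25 ratios stayed within the main interval, 21 left it, and 3 ratios whose main interval left out 1 changed direction. Ratios whose main interval included 1 also crossed it at 500 UMIs per cell. These were Arg1 in Xist-low (1.31) and NK-like cells (1.15), and Ass1 (0.791) and Odc1 (0.636) in dendritic-like cells. Arg2 in Xist-low cells gave no ratio at 500 UMIs. Odc1 in T-like cells went to 1.13 with the same Foxp3-positive share in both libraries. With cells thinned to 500 UMIs, Odc1 in NK-like cells went to 0.853 and Asl in dendritic-like cells to 1.70; the cause was not tested. No paired analysis was possible because each group holds 1 library and the replicate numbers only name samples.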
